A study of Camponotus floridanus with 64 samples.

Results

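In brains of the carpenter ant Camponotus floridanus, 92 of 16925 numbered gene identifiers stood at a log2 level of 1.5 or more in each of 5 vehicle-fed scouts and under 0.1 in each of 5 minor workers on day 1 of adult life. These 92 identifiers were chosen on those 10 libraries, so their levels there are a description and are not tested. They made up 6.91% of the 1332 numbered identifiers that met the scout threshold and 1.57% of the 5858 that met the day 1 threshold. Every one of them was then followed in 27 libraries that the choice did not use: scouts fed TSA, scouts fed TSA with C646, majors on day 1, and subsamples of another day 1 minor brain.

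Camponotus floridanus has a smaller worker caste, the minors, which forage and scout as they age, and a larger one, the majors. Workers leave the pupa as pale callows, stay in the nest at first and take up outside work later, and worker insect brains are known to change in gene expression and structure over that time. TSA (trichostatin A) inhibits histone deacetylases, and C646 inhibits the histone acetyltransferase activity of CBP and p300.

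All RNA was poly(A)-selected and came from central brains, with 1 brain per library. The 21 scouts were minors fed for 45 days on sugar water with DMSO alone, with 50 µM TSA, or with 50 µM TSA plus C646, and all were frozen as scouts. The 5 DMSO scouts were 78 days old and came from colonies SB2 (3 brains), SB6 and SB7, and the 10 TSA scouts were 68 to 73 days old and came from SB1, SB2 and SB4. The 6 TSA+C646 scouts were 57 to 66 days old, 4 of them at 50 µM C646 (SB1 and SB6) and 2 at 100 µM (SB4). The untreated day 1 workers, 5 minors and 5 majors, were callows of colony SB2. Age, feeding and library type all differ between the DMSO scouts and the day 1 minors and cannot be told apart, while colony SB2 is common to 3 of the 5 DMSO scouts and all the minors. Each scout library came from a 15% share of its brain and 1 round of linear amplification (LinDA), whereas the labels of the day 1 libraries name no amplification. The third table holds 6 libraries from 1 further day 1 minor of SB2, of which 1, from 75% of the brain, was made without LinDA, while 4 from 4% each and 1 from 1% were amplified by it.

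Levels are the deposited log2 values, and each of the 3 tables was normalized on its own, so that a level is compared only within its table. An identifier is called detected in a library where it stood above the run of tied values at the bottom of that library. The number of identifiers detected was 7511 to 12328 in scouts other than TSA+C646 brain 15, which had 2791. It was 10462 to 11259 in the minors, 5459 to 6528 in majors 1 to 3, 10216 and 11768 in majors 4 and 5, and 11252 to 11848 in the control subsamples. Library TSA+C646 15 stands apart, and comparisons of TSA+C646 scouts are given with and without it.

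The identifiers carry numbers and no gene names, and none matched the RefSeq table of the species, so the roles of the proteins they may encode are not described here. The numbers themselves were not evenly spread. Of the 92, 56 (60.9%) fell in the highest 25% of identifier numbers, against 17.7% of the 1240 other identifiers on the scout side and 47.4% of the 5766 others on the day 1 side. The sources used here do not say what the numbering follows. The 92 included 9 pairs of consecutive numbers holding 17 identifiers, such as Cflo_13241 with Cflo_13242 and Cflo_14939 with Cflo_14940, so some may be neighbours on the genome or parts of 1 gene and need not be independent.

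In DMSO scouts the 92 ran from a mean of 2.07 to 13.67, with a median of 3.96, where the other scout-side identifiers had a median of 2.95. The mean was at least 10 for 3 of them, from 6 to 10 for 22, from 4 to 6 for 21, from 3 to 4 for 24 and under 3 for 22. They held 6 of the 10, 7 of the 20 and 18 of the 50 highest numbered identifiers of the DMSO scouts. They were also more variable between brains of a group than the other scout-side identifiers. The median SD, with library constants removed and undetected values at 0, was 0.52 against 0.36 in DMSO scouts, where all of them were detected. It was 1.17 against 0.64 in TSA scouts and 1.48 against 0.92 in TSA+C646 scouts, or 0.65 against 0.43 in TSA+C646 scouts without brain 15. In the treated groups these SDs count missed detections along with the spread of detected levels.

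**Figure D1:**
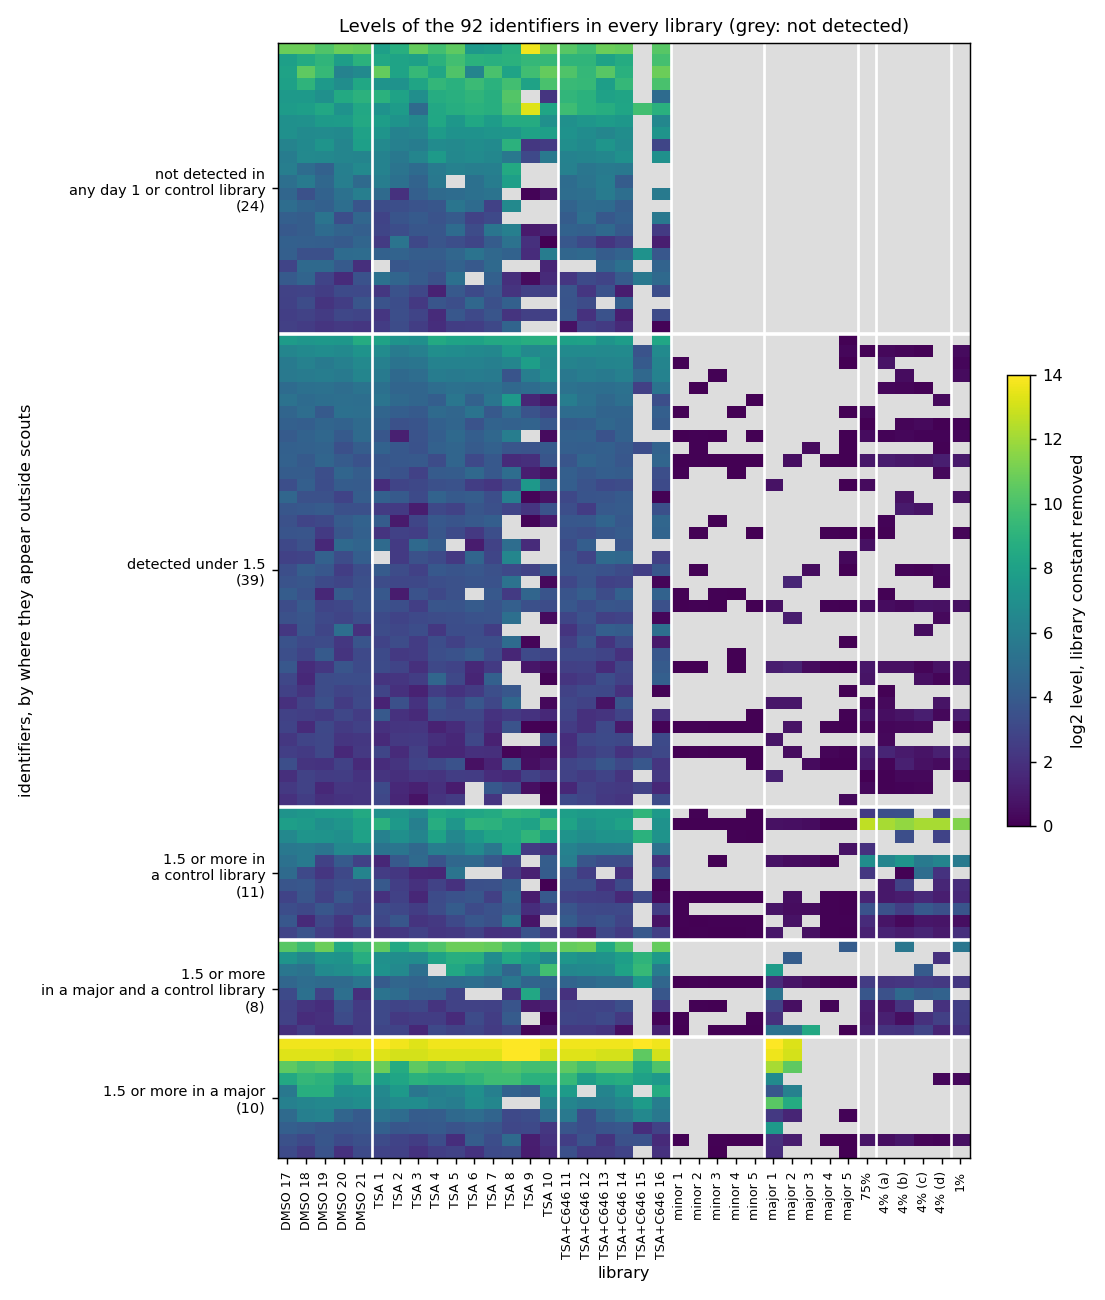
Log2 level, with each library's constant removed, of the 92 identifiers (one line each, grouped by where they appear outside scouts) in the 37 libraries (columns), with grey for not detected. The scout columns are filled except in TSA+C646 15 and, for part of the identifiers, TSA 8, 9 and 10, and the day 1 and control columns are mostly grey or near 0.

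Absence at day 1 was not complete. Of the 92, 58 were detected in no minor, beside 76.1% of the day 1 side, and 34 were detected in at least 1 minor at a level under 0.1. Among the latter, 8 were detected in all 5 minors. Absence in all 5 minors therefore held for 58 of them, and the other 34 were at trace level. Each minor detected 16 to 19 of the 92. At the margin of the rule, Cflo_14540, Cflo_11301 and Cflo_01682 passed with lowest DMSO levels of 1.53, 1.54 and 1.55, and Cflo_13166, Cflo_13279 and Cflo_15522 fell short with 1.48, 1.47 and 1.42. On the day 1 side, Cflo_00226, Cflo_14540 and Cflo_12462 passed with highest minor levels of 0.0982, 0.0939 and 0.0935. Cflo_02738, Cflo_13189 and Cflo_16318 fell outside with 0.1005, 0.102 and 0.106. No gap separated members from non-members at either threshold. Over all numbered identifiers, 100 were detected in every DMSO scout and in no minor, while 536 were detected in every minor and in no DMSO scout.

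The 8 most abundant identifiers in DMSO scouts were Cflo_14940, Cflo_13241, Cflo_17049, Cflo_13242, Cflo_14438, Cflo_16717, Cflo_16554 and Cflo_16957. Cflo_14940 stood at 13.71, 13.70, 13.64, 13.66 and 13.65 in DMSO brains 17 to 21, from 13.42 to 14.98 with a median of 13.75 in TSA scouts, and from 13.67 to 14.59 with a median of 13.70 in TSA+C646 scouts. It was thus high in all 21 scouts, and in none of them did it rank below 9 among all identifiers of the library. Because a rank fixes the value in this table, up to the library constant, its small spread is that of its rank, which was 8 in all 5 DMSO scouts. Cflo_13241 stood at 13.34, 13.33, 13.27, 13.05 and 13.28 in DMSO scouts and ranked 9 or 10 there. It was between 13.18 and 14.50 in TSA scouts, with a median of 13.31, and between 10.18 and 13.98 in TSA+C646 scouts, with a median of 13.20. Its lowest TSA+C646 level was that of brain 15.

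The other abundant identifiers spread more widely. Cflo_17049 stood at 10.88, 10.87, 10.08, 10.83 and 10.63 in DMSO scouts (mean 10.66 ± 0.34, SD, n = 5), from 7.53 to 14.17 with a median of 9.34 in TSA scouts, and up to 11.24 with a median of 10.51 in TSA+C646 scouts, where brain 15 did not detect it. Cflo_13242 stood at 10.53, 9.99, 10.22, 9.44 and 9.66 in DMSO scouts, with medians of 10.22 in TSA and 10.50 in TSA+C646 scouts. Cflo_14438 stood at 10.36, 9.55, 10.81, 8.43 and 9.50 in DMSO scouts, with medians of 10.30 and 10.40 in the treated groups. The ranges of the 3 scout groups overlapped for each of these.

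Cflo_16717 (DMSO mean 8.87 ± 0.52, SD, n = 5) was detected in all 21 scouts, and its levels ran from 7.84 to 9.80 in TSA and from 7.69 to 9.40 in TSA+C646 scouts. Cflo_16554 (8.46 ± 0.59, n = 5) ran from 8.06 to 10.14 in TSA scouts. Cflo_16957 (8.16 ± 1.82, n = 5) ran from 6.26 to 11.51 in TSA scouts. Both were detected in every scout but TSA+C646 15.

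Among the 16 treated scouts, SDs were taken with constants removed and undetected values at 0. The smallest were those of Cflo_14940 (0.29) and the consecutive numbers Cflo_04202 (0.36) and Cflo_04203 (0.45). Cflo_04202 stood between 3.61 and 4.81 in TSA scouts and between 2.99 and 5.30 in TSA+C646 scouts. The largest SDs were those of Cflo_15760 (3.33), Cflo_17049 (2.90) and Cflo_11713 (2.79), which became 2.87, 1.56 and 2.60 without TSA+C646 15. Cflo_15760 stood at 7.55, 7.58, 6.97, 8.503 and 8.97 in DMSO scouts and at 7.03 to 10.33 in TSA scouts 1 to 8, then at 3.002 in TSA 10, and it was not detected in TSA 9. Cflo_11713 stood at 4.97 to 8.58 in TSA scouts 1 to 8 and was not detected in TSA 9 and 10. Both were highest in TSA 8, above every DMSO scout, and far below every DMSO scout or not detected in TSA 9 and 10.

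In TSA scouts, 57 of the 92 (62.0%) were detected in all 10 brains, beside 92.3% of all scout-side identifiers and 94.6% of those outside the 92. Every one of the 92 was detected in at least 7 of the 10. The missing values gathered in a few libraries: TSA 9 detected 69 of the 92, TSA 10 detected 79 and TSA 8 detected 81, and the other 7 libraries detected 86 to 92. In those 7, 81 of the 92 were detected in every brain. Of the 23 that TSA 9 missed, 10 were also missed by TSA 10, which missed 13 of the 92, and 8 by TSA 8, which missed 11. TSA+C646 15 missed 22 of these 23, but it missed 65 of the 92. Of the whole scout side, TSA 9, 10 and 8 detected 97.4%, 98.1% and 98.7%. These 3 TSA libraries detected more identifiers in all than any DMSO scout, with 10074 in TSA 8, 11004 in TSA 9 and 12328 in TSA 10, against 7825 to 8931. TSA 2 and 3, with 10185 and 10204 identifiers, detected all 92. TSA 8 and 9 came from colony SB1 and TSA 10 from SB2. What made them miss these identifiers was not tested.

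In TSA+C646 scouts, 27 of the 92 were detected in all 6 brains, beside 50.3% of all scout-side identifiers and 51.9% of those outside the 92. Brain 15, which detected 27 of the 92, set that count: without it, 81 of the 92 (88.0%) were detected in all 5 remaining brains, beside 96.3% of the scout side. The other 5 brains detected 85 to 91. Across all 21 scouts, 23 of the 92 were detected everywhere, and 56 were when TSA+C646 15 was left out.

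**Figure D2:**
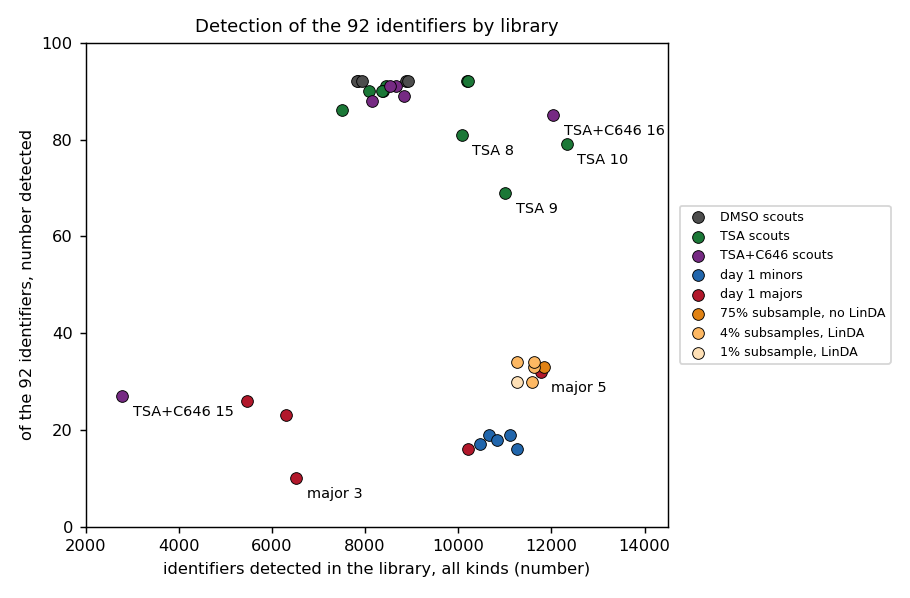
Number of the 92 identifiers detected (vertical axis) against the number of identifiers of all kinds detected (horizontal axis), with 1 point per library coloured by group. Scouts other than TSA+C646 15 lie between 69 and 92, day 1 workers and control subsamples lie between 10 and 34, and libraries TSA 8, 9 and 10 combine high totals with fewer of the 92.

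Levels in TSA scouts were set beside those in DMSO scouts over all 4899 identifiers with a mean of at least 1 in the scout libraries. DMSO levels helped to choose the 92, so a lean to lower TSA levels is built in and nothing is read from their direction here. Their differences are given as a description. In limma's moderated test with Benjamini-Hochberg adjustment, no identifier passed an adjusted p of 0.05 (0.00% of those tested), and none of the 92 did. At an unadjusted p under 0.05, limma gave 133 identifiers higher in TSA scouts (2.71%) and 27 lower (0.551%). By sign, 34 of the 92 were higher (3233 of the 4899 tested) and 58 lower (1666 of the 4899), with a median difference of -0.18, where all tested identifiers had a median of 0.14. The excess of higher identifiers depended on the library constants, which were 0.48 in TSA 9 and 0.84 in TSA 10. With constants removed and undetected values at 0, limma gave 92 higher and 80 lower of the 4899 at an unadjusted p under 0.05. In that setting the median over all identifiers was -0.02, and the 92 split into 22 higher and 70 lower with a median of -0.34.

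Cflo_02162, Cflo_15182 and Cflo_16181 ranked first among the 92 by p-value in that comparison. That order served only to name them and is no test. Cflo_02162 stood at 4.25, 4.15, 5.33, 3.30 and 4.57 in DMSO scouts and between 2.68 and 4.08 in TSA scouts 1 to 7, and it was not detected in TSA 8, 9 and 10. Its difference was -1.78 (SE 0.83), or -1.16 with array weights. Cflo_15182 was missed by the same 3 brains and differed by -1.38 (SE 0.66), or -0.87 with array weights. For Cflo_16181 the difference was -1.62 (SE 0.89), with DMSO levels of 4.88, 3.11, 2.19, 3.03 and 6.21, and it was -1.04 without DMSO brain 21 and -0.54 within colony SB2. The DMSO and TSA ranges overlapped for each of these 3 identifiers, and some TSA brains that detected them lay below the lowest DMSO level.

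The comparison of TSA+C646 with TSA scouts did not enter the choice of the 92. In limma, no identifier of 4899 passed an adjusted p of 0.05 (0.00%), and none of the 92 did. At an unadjusted p under 0.05, limma gave 70 identifiers higher (1.43%) and 104 lower (2.12%) in TSA+C646 scouts, with 3 and 3 among the 92. Without brain 15 the numbers were 144 higher (2.94%) and 31 lower (0.633%), with 8 and 0 among the 92. Without brain 16, whose library constant was 0.91, they were 34 higher and 326 lower, with 1 and 6 among the 92. Without TSA 9 and 10 and TSA+C646 15 and 16 they were 82 higher and 94 lower, with 5 and 3 among the 92. The excess in either direction thus depended on single libraries. With all brains, 28 of the 92 were higher, beside 1888 of all 4899 identifiers (38.5%). Lower were 64 of the 92, beside 3011 of all 4899 (61.5%). The median difference of the 92 was -0.31 beside -0.10 for all identifiers tested. That lean rested on brain 15. Without it, 61 were higher and 31 lower, with a median of 0.16 beside 0.03 for all, and 37 of the 92 changed sign, 35 of them from lower to higher. At 50 µM C646 alone the split was 61 higher and 31 lower with a median of 0.22 beside 0.08 for all, and within colony SB1, which supplied 4 TSA and 3 TSA+C646 scouts, it was 54 higher and 38 lower with a median of 0.17 beside 0.14 for all. Both of these subsets also left out brain 15 and kept brain 16. Without brain 16 alone the split was 22 higher and 70 lower, with a median of -0.32 beside -0.26 for all. Without TSA 9 and 10 and TSA+C646 15 and 16 it was 51 higher and 41 lower, with a median of 0.03 beside -0.03. With array weights it was 55 higher and 37 lower, with a median of 0.10 beside -0.04. The direction thus changed with the libraries kept and their weights, and ages and colonies differed between the treatments.

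**Figure D3:**
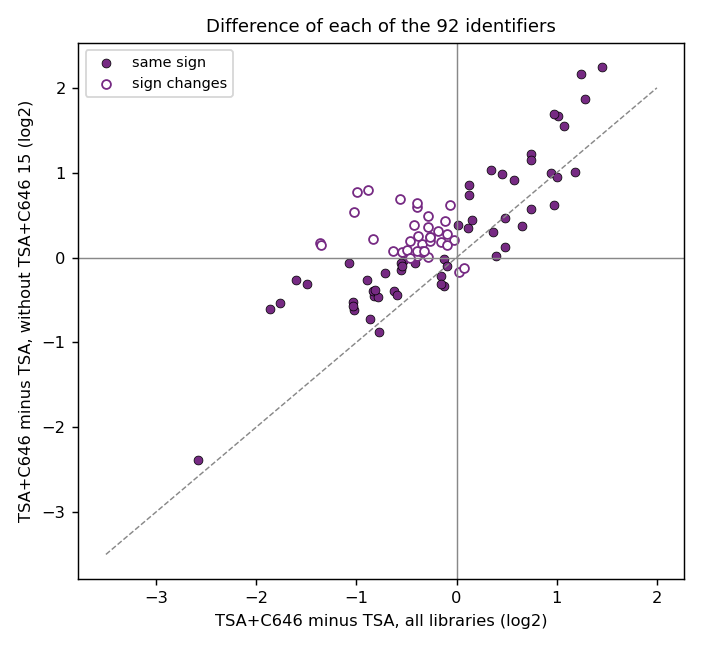
Difference in log2 level, TSA+C646 minus TSA scouts, for each of the 92 identifiers (points) with all libraries (horizontal axis) and without TSA+C646 15 (vertical axis), with a dashed line of equal values. Open points mark the 37 identifiers that change sign, and most points lie above the dashed line.

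Cflo_08026 had the smallest p of the 92 in this comparison, with levels of 0.25 to 2.88 (median 1.68) in TSA and 1.89 to 3.95 (median 2.42) in TSA+C646 scouts. The groups overlapped, and the difference was 0.94 (SE 0.37, limma adjusted p = 0.991), or 0.9996 without brain 15. It was 1.77 within colony SB1 and 0.54 with array weights. Cflo_15213 stood at 0.59 to 3.87 (median 2.04) and at 2.86 to 3.75 (median 3.08), a difference of 1.006 (SE 0.43, limma adjusted p = 0.991), or 0.95 without brain 15. Cflo_15419 was missed by many treated brains and varied widely in the rest. It was detected in 8 of 10 TSA scouts, at 2.15 in TSA 8 to 8.85 in TSA 9, and in 2 of 6 TSA+C646 scouts, at 1.999 in brain 11 and 4.63 in brain 16. Its difference was -2.58 (SE 1.07, limma adjusted p = 0.991), or -2.39 without brain 15 and -1.55 within colony SB1.

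Without brain 15 the largest increase among the 92 was that of Cflo_02162, which was 2.25 higher in TSA+C646 scouts (SE 0.66, limma adjusted p = 0.882). Its levels were 4.10, 5.15, 3.86, 4.30 and 6.49 in TSA+C646 brains 11, 12, 13, 14 and 16, most of them above the highest TSA level of 4.08. These 5 brains lay within or above the range of the DMSO levels, while 3 TSA libraries missed the identifier. It was named here after its values were seen.

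Majors were the same age and from the same colony as the minors that chose the 92. Of the 92, 50 were detected in 1 or more of the 5 majors, or 54.3%, beside 33.0% of all day 1-side identifiers. At a level of 1.5 or more in a major there were 18, or 19.6%, beside 6.96%. By brain, majors 1 to 5 detected 26, 23, 10, 16 and 32 of the 92. Of the 92, 42 were detected in no major, 22 in 1, 11 in 2, 9 in 3, 4 in 4 and 4 in all 5. Majors 1 and 2 detected fewer identifiers in all than any minor (5459 and 6298) and more of the 92.

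A block of 4 abundant scout identifiers appeared together in majors 1 and 2 and in no other day 1 library. Cflo_14940 stood at 14.41 in major 1 and 13.29 in major 2, and it was not detected in majors 3, 4 and 5 or in any minor. Cflo_13241 stood at 13.65 and 13.12, and Cflo_13242 at 12.15 and 10.55, in the same 2 brains and was likewise not detected in the other 8. Cflo_11534 stood at 10.39 and 8.61 there and was not detected elsewhere on day 1. In scouts Cflo_11534 stood at 6.12, 6.39, 6.49, 6.48 and 6.80 in DMSO brains and was detected in all 6 TSA+C646 and in 8 of 10 TSA brains, being missed by TSA 8 and 9. The 4 identifiers were high together or not detected together in all 10 day 1 libraries. Cflo_14940 ranked 4 and 6 among all identifiers in these majors, so it was among their most abundant transcripts.

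Other identifiers appeared in some of the majors. Cflo_13791 (DMSO mean 7.46) shared the pattern of the block, at 3.79 and 6.19 in majors 1 and 2, and was detected in no other major and no minor. Cflo_11114 was likewise detected in majors 1 and 2 and in no other major or minor, at 0.83 and 0.86. Cflo_14939, whose number precedes that of Cflo_14940, stood at 7.48 in major 1, as did Cflo_17036 at 7.72 and Cflo_16717 at 6.69, and none of these 3 was detected in another major. Cflo_14636, one of the 92 with the lowest scout levels (DMSO mean 2.07 ± 0.32, SD, n = 5), stood at 5.29, 5.23 and 8.42 in majors 1, 2 and 3 and at 0.07 or less in majors 4 and 5. In this table its level in 3 majors was thus far above its trace level of 0.02 or less in the minors. Cflo_14438 stood at 4.08 in major 5 and was not detected in the other majors.

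Some number neighbours of the block (Cflo_13240, Cflo_13243, Cflo_11535, Cflo_14938 and Cflo_14941) were looked up after the block was seen. None of these was present in majors 1 and 2 alone, and the number before Cflo_11534 was not looked up. Cflo_13243, which follows Cflo_13242, was detected in every library, with 19.18 to 19.20 in minors and 19.17, 13.68, 19.17, 19.19 and 19.22 in majors 1 to 5. Cflo_11535, which follows Cflo_11534, was also detected in every library, with 14.43 to 14.84 in minors and 9.01, 9.47, 13.27, 14.84 and 14.45 in majors 1 to 5. It was lowest in majors 1 and 2, the brains in which Cflo_11534 was present. Cflo_13243 was low in major 2 and not in major 1. Cflo_13240, which precedes Cflo_13241, was detected in all 5 minors (0.06 to 0.23), in 3 majors, in all 6 control libraries (1.13 to 3.16) and in no DMSO scout. Cflo_14938, which precedes Cflo_14939, was detected in 4 TSA and 2 TSA+C646 scouts and in no day 1 library. Cflo_14941, which follows Cflo_14940, was detected in no library. Whether the neighbours and the members divide reads of 1 locus between them was not tested.

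**Figure D4:**
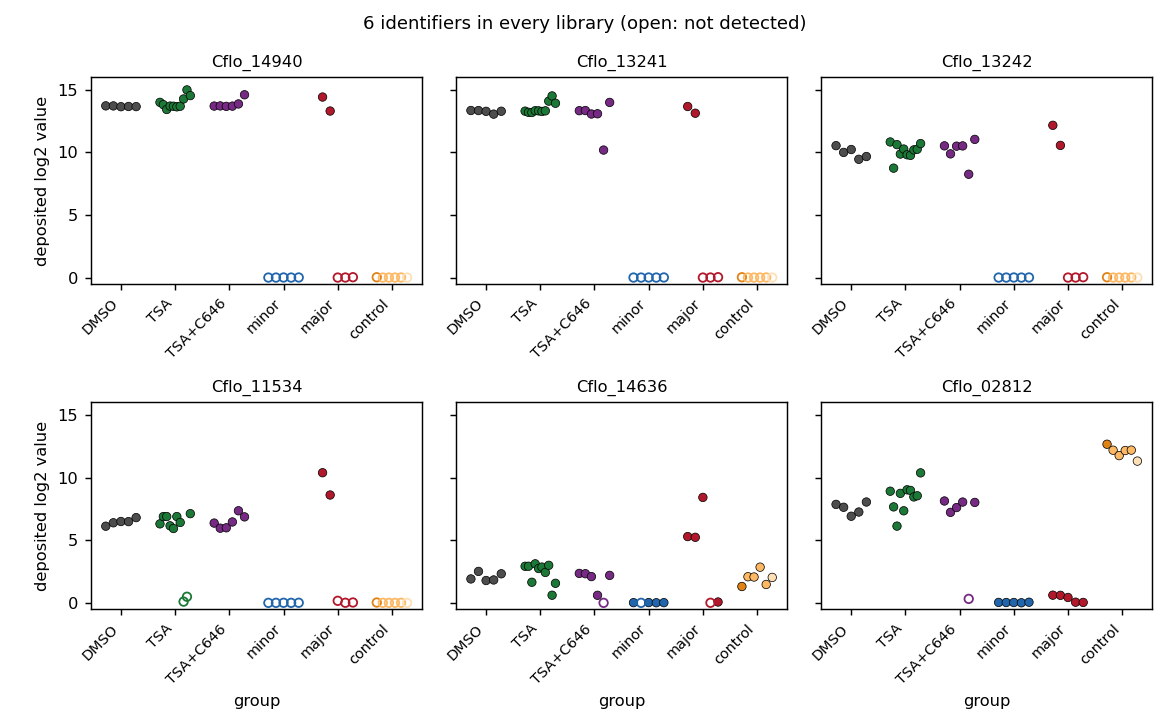
Deposited log2 value (vertical axis) of 6 identifiers in every library (points) by group, with open points for not detected. Cflo_14940, Cflo_13241, Cflo_13242 and Cflo_11534 are high in scouts and in majors 1 and 2 and not detected in the other majors, the minors or the control subsamples, Cflo_14636 is highest in majors 1 to 3, and Cflo_02812 is highest in the control subsamples.

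In limma's test of majors against minors over 3694 identifiers, 2 passed an adjusted p of 0.05 (0.0541%), and neither was one of the 92. Minor levels chose the 92, so a member could hardly be lower in majors. The filter on a mean of at least 1 let 6 of the 92 through, and each passed it through its level in majors. Their direction was therefore fixed, and their differences are given as a description with no test. Majors exceeded minors by 3.79 for Cflo_14636 (SE 1.47), by 3.84 for Cflo_11534 (SE 2.08) and by 5.36 for Cflo_13241 (SE 2.92). These 3 identifiers were high in 2 or 3 of the 5 majors, and the values moved with single brains and with weighting. Without major 1, Cflo_11534 differed by 2.199 and Cflo_13241 by 3.29, and without major 2 Cflo_13241 differed by 3.42. With array weights the differences were 1.14, 0.92 and 1.30, and for Cflo_14636 a pseudocount of 0.1 gave 5.77 and one of 5 gave 2.46. Without majors 1 to 3, the libraries that detected the fewest identifiers, the median difference of the 6 was 0.01 in place of 4.19.

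The further day 1 minor brain showed whether the absence extended to a brain that the rule had not used. Of the 92, 55 were detected in 1 or more of its 6 libraries, or 59.8%, beside 44.6% of day 1-side identifiers. At a level of 1.5 or more there were 19, or 20.7%, beside 10.8%, and 17 were detected in all 6 libraries, or 18.5%, beside 10.9% of the day 1-side identifiers outside the 92. So 37 of the 92 were detected in none of the 6. The 6 libraries are technical subsamples of 1 brain and carry no error between animals.

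Cflo_02812 was the most abundant of the 92 in that brain. It stood at 12.66 in the 75% subsample, at 12.18, 11.75, 12.16 and 12.19 in the 4 subsamples of 4%, and at 11.32 in that of 1%. In the day 1 table it was at 0.05 or less in every minor and at 0.61, 0.60, 0.43, 0.05 and 0.03 in majors 1 to 5. It was thus high in 1 day 1 minor and at trace level in 5 others of the same colony, although these levels come from separately normalized tables. In scouts it stood at 7.86, 7.63, 6.91, 7.25 and 8.05 in DMSO brains, between 6.13 and 10.38 in TSA brains and between 7.22 and 8.13 in TSA+C646 brains other than 15.

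Cflo_06436 stood at 6.91 in the 75% subsample, at 6.35, 7.22, 5.71 and 6.31 in those of 4% and at 5.78 in that of 1%, and it was at 0.02 or less in the minors. Cflo_15419 stood at 3.77 in the 75% subsample and at 3.48, 4.78, 4.09 and 4.40 in those of 4%, and it was listed at 0 in that of 1%. Cflo_15452 ranged from 2.59 to 3.91 over the 6 libraries. The first and the last of these were thus carried by the library without LinDA and by all 5 with it.

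Others depended on the subsample. Cflo_14438 stood at 5.57 in 1 subsample of 4% and 5.51 in that of 1%, and it was not detected in the 75% subsample. Cflo_16181 stood at 2.31 in the 75% subsample and at up to 4.98 in those of 4%, but it was not detected in all of them. The presence of these 2 thus differed between subsamples of a single brain.

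The control table also allows the libraries with and without LinDA to be set side by side. The 75% subsample without LinDA detected 33 of the 92 (day 1 side: 28.2%), and the 5 LinDA libraries detected 30 to 34. Of the 92, 29 were detected both in the 75% subsample and in a LinDA library, and 17 of these in all 5. Detection in LinDA libraries alone applied to 22 (23.9%), beside 16.5% of the day 1 side. Of these 22, 12 were detected in a single LinDA library, 0 in all 5, and 5 reached 1.5. Detection in the 75% subsample alone applied to 4 (4.35%), beside 2.97%. No identifier of the 92 was present in every LinDA library of this brain and missing from the library made without LinDA. The share of the brain differed between the kinds of library along with the amplification, so that the effects of the 2 cannot be told apart here.

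**Figure D5:**
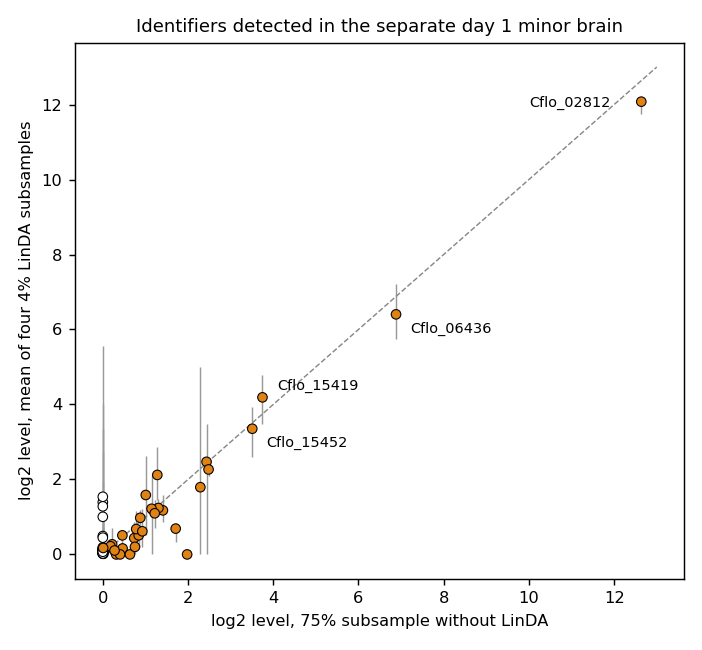
Log2 level, library constant removed and undetected values at 0, in the 75% subsample without LinDA (horizontal axis) and as the mean of the 4 LinDA subsamples of 4% (vertical axis, bars from lowest to highest) for the 55 identifiers detected in the control brain, with a dashed line of equal values. Filled points were detected in the 75% subsample, and the levels of Cflo_02812, Cflo_06436, Cflo_15419 and Cflo_15452 lie near the dashed line.

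Put together by where they appear outside scouts, 24 of the 92 were detected in no minor, no major and no control library. Their DMSO means ran from 2.36 to 10.66, and they were led by Cflo_17049, Cflo_16554, Cflo_16957, Cflo_16849 (mean 7.96), Cflo_15760 (7.92), Cflo_14566 (7.88) and Cflo_15442 (7.55). These identifiers were high in DMSO scouts and below detection in all 16 libraries from day 1 workers. A further 39 were detected on day 1 but stayed under 1.5. A level of 1.5 or more was reached by 11 in a control library only, by 10 in a major only and by 8 in both. By detection alone, 38 of the 92 appeared both in a major and in a control library, 12 in a major only and 17 in a control library only. These joint counts were not made over the whole day 1 side, so none is read as particular to the 92. On that side 76.1% were detected in no minor, 33.0% in 1 or more majors and 44.6% in 1 or more control libraries.

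Among the 24, Cflo_14566 was detected in all 21 scouts, from 4.94 to 13.80 in TSA and from 8.23 to 9.77 in TSA+C646 scouts. Cflo_15442 stood at 7.05, 7.09, 7.58, 7.63 and 8.42 in DMSO scouts and was detected in every other scout but TSA+C646 15. Cflo_16849 stood at 7.999, 9.13, 7.50, 6.86 and 8.31 in DMSO scouts and was likewise missed by TSA+C646 15 alone. These 3 were thus present in scouts under all 3 feedings.

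The libraries were labelled central brain. Of the 5 named receptors used to check for antennal sensory tissue, which a central brain should lack, Orco was detected in 2 of 5 DMSO scouts, 6 of 10 TSA scouts, 3 of 6 TSA+C646 scouts, 0 of 5 minors and 1 of 5 majors. Its level was at most 0.95 in scouts and 0.01 in minors, and it reached 2.19 in a major. The other 4 (IR25a, IR8a, IR76b and IR93a) stayed at 1.75 or less in every scout. IR25a, IR8a and IR93a were detected in all 5 minors, at 1.21 to 1.64, 0.34 to 0.79 and 0.78 to 1.17, and IR76b in 1. In DMSO scouts IR25a was at 0 to 0.59, IR8a at 0 to 0.84 and IR93a at 0.27 to 1.11. Scout and minor levels come from separately normalized tables, so they are listed here and not compared. The part of other tissue in the difference between scouts and day 1 minors was not tested beyond these markers. In such bulk libraries, fewer cells of a type and less RNA per cell cannot be told apart.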

How the data were processed

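Poly(A) RNA libraries of 37 central brains or subsamples were analysed; the series' other 27 samples are not analysed here. The authors deposited log2 values in 3 tables, with the log base inferred here from the values. The submitters' processing notes name Bowtie2, bcl2fastq 2.0 and Cufflinks 2.2.1; the genome build, the annotation and how values were normalized were not given in the sources used here. Within a table every library held 1 shared distribution of values plus 1 constant (-0.33 to 0.91 in scouts, at most 0.03 in absolute size in the other tables), so a rank fixes a value. Tied values at the bottom were recovered from their order and called not detected, which in libraries with a negative constant is a lower bound on detection. An undetected scout identifier could carry up to 1.30, which is under the scout threshold of 1.5. A value listed at 0 may be a failed estimate. No counts are in the tables, so depth is unknown.

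Differences were tested with limma 3.58.1 (R 4.3.3; trended variance, mean of at least 1, Benjamini-Hochberg over all identifiers tested, threshold 0.05) on the deposited log2 values, which understate changes of low genes. The 3 scout groups shared 1 fit, and day 1 majors and minors had their own. Groups came from the labels and each library of the tested groups was a separate brain. The test and the recovery of ties were checked on simulated data. The 92 identifiers and the lists were chosen with earlier results of these data known. The identifiers named with values were the 8 highest in DMSO scouts, the 3 smallest p-values in each test, the 5 highest in majors and in control libraries, the 3 lowest and 3 highest SDs over treated scouts and those nearest the thresholds. Others were named after their values were seen, namely Cflo_14939, Cflo_13791, Cflo_11114, Cflo_17036, Cflo_15452, Cflo_16849, Cflo_14566, Cflo_15442 and the number neighbours. Differences from groups that chose the 92 carry no test.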

Additional observations from a re-analysis of the deposited data

Results flagged for a closer look

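Of 118 groups of 4 to 10 libraries examined for a library far from the rest (the named identifiers in 5 groups, and counts of the 92 detected), 26 held one. Chance flags about 1 in 20 groups where values are normally distributed. Some groups here held 1 value above others at the floor, which is flagged readily, so 26 is not read as an excess. No explanation was tested for any of them.

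TSA+C646 brain 15 was the far library in 7. It detected 27 of the 92, and it was lowest for Cflo_02812 (0.32), Cflo_13241 (10.18), Cflo_14438 (1.17), Cflo_16554 (0.13), Cflo_16957 (0) and Cflo_17049 (0). In the other scouts, Cflo_11301 was lowest in TSA+C646 11 (1.56), Cflo_13242 in TSA 2 (8.73), Cflo_13241 in DMSO 20 (13.05) and Cflo_14540 in DMSO 19 (1.53). Cflo_14940 was highest in TSA+C646 16 (14.59), but that deposited value holds the library constant of 0.91. Its rank there was 8, as in TSA+C646 11 to 14, so its standing within the library was not higher.

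In majors, 1 brain stood above the other 4 for Cflo_16717 (6.69, major 1), Cflo_15419 (5.30, major 1), Cflo_14438 (4.08, major 5), Cflo_00226 (0.69, major 2), and, in major 3, Cflo_04202 (0.40), Cflo_04203 (0.42) and Cflo_15213 (0.37).

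Among the 4 subsamples of 4%, 1 stood apart as the highest for Cflo_14438 (5.57), Cflo_16717 (0.26), Cflo_14540 (0.0972), Cflo_04202 (0.0819) and Cflo_15182 (0.0655). It stood apart as the lowest for Cflo_02812 (11.75) and Cflo_00226 (0.33). The values under 1 lie near the limit of detection.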

How the results depend on the processing

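The number of identifiers meeting the rule was 242 with a day 1 threshold of 0.5, and leaving out 1 brain at a time gave 93 to 105. Presence in all TSA+C646 scouts was 81 without TSA+C646 15 (27 to 81 leaving out each brain), and presence in all TSA scouts was 57 to 65. Counting presence from a level of 1.5 gave 18 in majors and 19 in control libraries, and leaving out 1 library gave 38 to 50 and 49 to 55. In limma, TSA against DMSO scouts called 1 identifier with array weights and 1 within colony SB2, and 0 whichever brain was left out; TSA+C646 against TSA called 0 in each case. Majors against minors called 1 with a mean of at least 2, 4 without minor 5, 4 without major 4, and 37 without major 5 (2 to 37 over all brains). With replicate number as a block it called 0, with a smallest limma adjusted p of 0.0539. Same-numbered brains correlated at -0.12 to 0.17, and the labels do not say that a number pairs brains. So few correlations cannot settle whether it does. None of the 92 was called under any of these settings, but TSA against DMSO and majors against minors used groups that chose them. In majors against minors most settings tested only 6 of the 92, so the lack of calls there says nothing about the rest. With a pseudocount of 5, which compresses low values, Cflo_02162, Cflo_15182 and Cflo_16181 differed by -1.14, -0.79 and -0.99 between TSA and DMSO scouts, and Cflo_08026, Cflo_15213 and Cflo_15419 by 0.48, 0.54 and -1.60 between TSA+C646 and TSA scouts. Without TSA 9 and 10 and TSA+C646 15 and 16, Cflo_08026 differed by 0.53. The causes were not tested. The remaining 106 values of the main counts equalled the main value or lay within 1.5-fold of it. For single identifiers, 205 values kept their direction and side of the threshold. The 6 control libraries come from 1 brain, and the precision of all comparisons is limited by 5 to 10 brains per group.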
